A study of Mus musculus with 11 samples.

Results

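In the adrenal glands of mice, 41 genes that carry a provisional symbol separated castrated from intact animals in every library. The genes were the rows of the count table with a symbol of the form Gm and a number, or with an ending in Rik, that had a mean of at least 1 CPM (a gene's counts relative to the library total) and whose ORX values all lay above, or all below, the intact values. They are 41 of 23337 genes listed and of 941 Gm and Rik genes at that level, and 1 symbol was left out by the rule. Both groups were males of 1 strain (Hsd:Athymic Nude-Foxn1nu, without a functional thymus), and all had been inoculated with VCaP cells, a human prostate cancer line. In the intact group (5 libraries) the testes were left in place, and in the group named ORX (6 libraries) the mice were orchectomized. The mice were 5 to 6 weeks old when inoculated in week 0, entered the groups in week 7 and gave their adrenals in week 15. Since the 41 genes were chosen by the contrast of ORX with intact, their differences between the groups are given below as a description, without a test. The labels do not say that each library is a separate mouse, so the spread between libraries may be partly technical.

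Gm symbols are assigned to genes predicted from sequence, and Rik symbols to genes first seen as cDNA clones of the RIKEN collection. Such genes keep the provisional symbol until their product is described. Many are long non-coding RNAs (lncRNAs), transcripts with no known protein, which often start beside or run opposite to a coding gene. In male mice the adrenal cortex responds to the testis: androgens make the X-zone, a transient layer next to the medulla, regress at puberty, and a secondary X-zone can form after castration.

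Library totals ranged from 11368447 to 15029582 counts. ORX 6 stood apart by transcript length: against the other ORX libraries it deviated at the median from 0.64 (log2) in the tenth of genes with the shortest transcripts to -0.72 in the tenth with the longest. Leaving ORX 6 out moved the log2 difference of the 41 genes by at most 0.21. Intact 3 and ORX 3 lay nearest to the opposite group for many of the 41 genes, as described at the end. The tissue was checked by marker lists. The 10 genes listed for the adrenal cortex summed to 38915 to 96652 CPM in a library and the 7 kidney genes to at most 2.52 CPM, with Umod at 0 in every library.

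Of the 41 genes, 26 were higher and 15 lower in every ORX library. The groups did not overlap for 4.36% of the 941 Gm and Rik genes and for 5.03% of the 12817 other genes with a mean of at least 1 CPM. By direction, the shares were 2.76% higher and 1.59% lower among Gm and Rik genes, and 2.78% and 2.25% among the others. In the fit over all 14139 tested genes (edgeR's quasi-likelihood test, Benjamini-Hochberg adjusted p under 0.05), 6.21% passed, 3.03% as higher and 3.18% as lower. All 41 genes were tested, and 17 passed as higher, 12 as lower and 12 not at all. Without intact 5 the number that passed was 18 of the 41 and 408 of all tested genes. Without ORX 5 it was 19 and 447, against 29 and 878 with all libraries. Nothing is read from these counts for the 41 genes, since the rule used the same contrast.

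All 41 symbols were found in RefSeq (GRCm38.p6, the assembly of the mm10 build named by the submitters). Since the table's annotation was made, 18 have received a proper name, and all 18 code for protein. A further 9 are coding genes that still bear a Gm or Rik symbol, and 14 are lncRNAs. Named genes were split evenly, with 9 higher and 9 lower in ORX. Of the 9 coding genes with a provisional symbol 8 were higher and 1 was lower, and of the lncRNAs 9 were higher and 5 lower. The genes lie on 19 chromosomes, with at most 4 on any of them. The ratio of the group means was at least 2 for 22 genes and at least 4 for 7. Per kilobase of the longest annotated transcript, Mgarp had the highest mean level, 490.2 CPM, followed by Prxl2b with 68.4 and 1110008P14Rik with 59.1 CPM, and the lncRNA C030037D09Rik the lowest, 0.361 CPM, among the 40 genes with an annotated length.

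**Figure D1:**
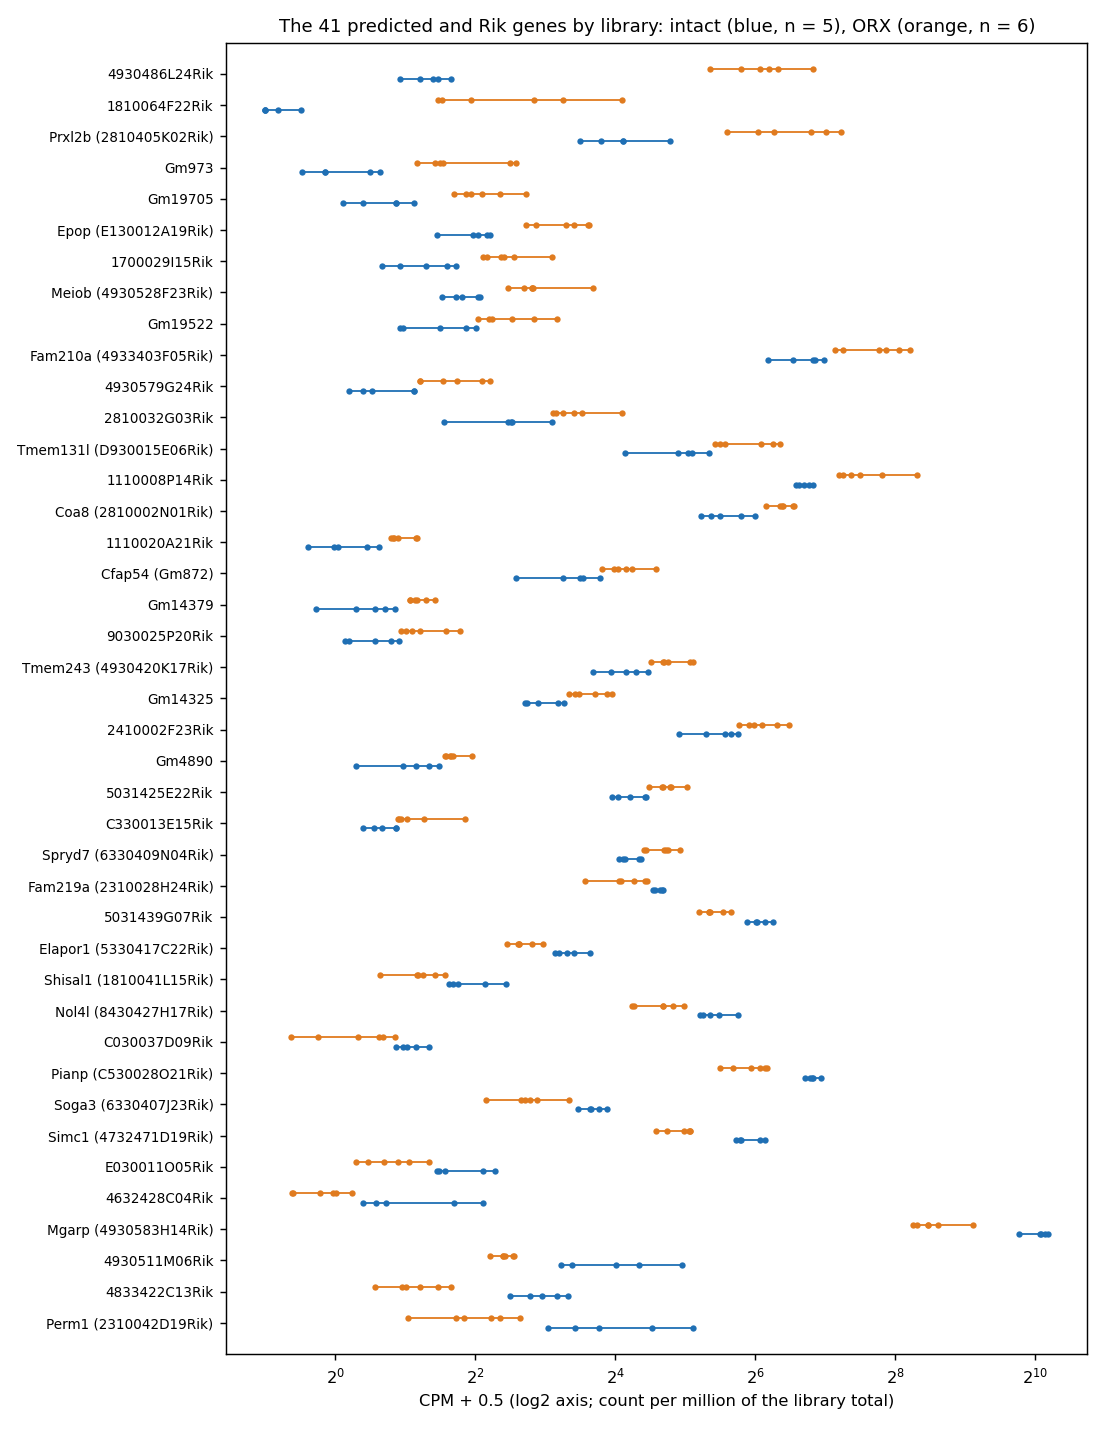
Each point is 1 library and each row 1 of the 41 genes, with the current RefSeq symbol first where there is one; the horizontal axis is CPM plus 0.5 on a log2 scale. Blue stands for intact (n = 5) and orange for ORX (n = 6), and a line joins the lowest and highest library of a group. Rows are ordered by the difference of the mean log2 values, from genes lower in ORX at the bottom to 4930486L24Rik at the top; the rule sets that the lines of a row do not overlap.

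The promoter windows of 5 genes with large differences are printed here as the places where their transcription starts: Mgarp and Perm1 were lower in ORX, and Prxl2b, 4930486L24Rik and 1810064F22Rik higher. Each holds 250 bases before and 50 after a RefSeq transcript start (GRCm38.p6), 5′ to 3′ on the gene's strand, and for Perm1 that start lies inside the annotated span of the gene. Capitals mark the motif AAGGTCA, the half-site bound by steroidogenic factor 1 and related nuclear receptors, or its reverse complement.
Mgarp, chr3:51396498-51396797, minus strand: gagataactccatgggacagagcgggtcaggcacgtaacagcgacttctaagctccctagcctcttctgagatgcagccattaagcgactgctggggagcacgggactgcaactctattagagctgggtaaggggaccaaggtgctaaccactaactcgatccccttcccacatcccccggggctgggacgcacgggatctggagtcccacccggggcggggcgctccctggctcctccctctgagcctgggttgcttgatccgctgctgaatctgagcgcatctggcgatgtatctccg
Perm1, chr4:156215677-156215976, plus strand: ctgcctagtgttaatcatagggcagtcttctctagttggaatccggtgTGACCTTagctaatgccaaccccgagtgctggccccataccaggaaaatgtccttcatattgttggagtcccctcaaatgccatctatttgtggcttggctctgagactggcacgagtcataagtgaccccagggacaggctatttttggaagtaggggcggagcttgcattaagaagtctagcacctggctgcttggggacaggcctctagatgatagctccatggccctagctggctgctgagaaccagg
Prxl2b, chr4:154898994-154899293, minus strand: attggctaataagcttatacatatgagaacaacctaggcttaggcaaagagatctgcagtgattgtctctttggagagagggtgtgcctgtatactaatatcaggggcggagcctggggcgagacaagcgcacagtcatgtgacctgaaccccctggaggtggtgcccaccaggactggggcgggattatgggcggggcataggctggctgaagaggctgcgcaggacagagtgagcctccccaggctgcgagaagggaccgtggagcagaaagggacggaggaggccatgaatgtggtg
4930486L24Rik, chr13:60864367-60864666, minus strand: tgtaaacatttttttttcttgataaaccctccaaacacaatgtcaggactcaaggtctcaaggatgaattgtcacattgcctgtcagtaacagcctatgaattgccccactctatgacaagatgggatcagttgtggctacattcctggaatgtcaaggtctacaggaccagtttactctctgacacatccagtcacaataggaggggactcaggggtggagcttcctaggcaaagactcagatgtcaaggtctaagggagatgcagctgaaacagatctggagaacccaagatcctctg
1810064F22Rik, chr9:22213811-22214110, minus strand: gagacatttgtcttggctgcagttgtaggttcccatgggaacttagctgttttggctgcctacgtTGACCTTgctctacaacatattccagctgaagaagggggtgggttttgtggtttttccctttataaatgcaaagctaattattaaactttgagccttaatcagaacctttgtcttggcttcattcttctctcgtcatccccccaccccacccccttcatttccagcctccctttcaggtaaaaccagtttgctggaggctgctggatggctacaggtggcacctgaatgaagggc

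In these 5 windows the motif was found in Perm1, starting 202 bases before the transcript start, and in 1810064F22Rik, 185 bases before it, both as the reverse complement. Promoter windows were at hand for 34 of the 41 genes, 40 windows in all. AAGGTCA, searched on both strands, was in 3 of the 40 (7.5%), the remaining one being 1110020A21Rik, and in 4.72% of all 32851 mouse windows. The androgen and glucocorticoid response element GNACA, any 3 bases, TGTNC was in 0 of the 40 and in 0.475% of all windows, and the oestrogen response element GGTCA, any 3 bases, TGACC in 0 of the 40 and in 0.07%. These matches are letters in a window, and nothing about binding was measured.

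Among the genes whose products act in mitochondria, Mgarp was far the most abundant, and it was lower in ORX. Mgarp (4930583H14Rik; chr3:51388412-51396547, minus strand) codes for a protein of the mitochondrial membrane that is abundant in steroid-making tissues and shapes mitochondria and their transport. Its CPM was 1080.1, 1077, 1166, 872 and 1133 in intact 1 to 5, and in the ORX libraries 306 at the lowest, 353 at the median and 550.4 at the highest (log2 -1.53 ± 0.19, SE). Intact 4 was the lowest intact library and still well above ORX 6, the highest of its group, and the other 5 ORX libraries did not exceed 392 CPM. Perm1 (2310042D19Rik; chr4:156203262-156221307, plus strand), known in muscle as a regulator of oxidative metabolism induced by PGC-1 and ERR, was lower as well. For Perm1 intact 1 to 5 held 13.1, 22.5, 7.74, 10.3 and 34.2 CPM, against 1.56 to 5.74 CPM with a median of 3.62 in ORX (log2 -2.33 ± 0.42, SE). Its intact values were scattered, with intact 5 the highest and intact 3 the nearest to ORX. Coa8 (2810002N01Rik; chr12:111713268-111755057, plus strand), an assembly factor of cytochrome c oxidase, was higher in ORX. In intact 1 to 5 the level of Coa8 was 44.4, 36.7, 55.1, 63.2 and 40.9 CPM, and the ORX libraries lay between 70.7 and 93.9 CPM around a median of 83.5 (log2 0.78 ± 0.14, SE). Intact 4 was nearest to the ORX libraries, of which ORX 3 was the lowest. Fam210a (4933403F05Rik; chr18:68260175-68300333, minus strand), a mitochondrial protein with a part in mitochondrial translation, was also higher. Fam210a stood at 92.2, 72.1, 113, 126 and 116 CPM in intact 1 to 5, and at 140.1, 225 and 295 CPM in the lowest, median and highest ORX library (log2 1.02 ± 0.20, SE). ORX 3 and ORX 6 were the lowest of their group and lay close to intact 4. On the opposite strand the span of Fam210a overlaps Rnmt and D18Ertd653e, and shares 2798 exon bases with the latter in GENCODE M21. Whether the counting used the strand is not given in the sources used here, so reads of such pairs could not be told apart.

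Prxl2b (2810405K02Rik; chr4:154896430-154899043, minus strand), the prostamide and prostaglandin F synthase, had the largest difference among the genes named since. Its CPM was 13.4, 16.7, 26.9, 16.7 and 10.8 in intact 1 to 5, and in the ORX libraries 47.99 at the lowest, 93.8 at the median and 149.7 at the highest (log2 2.49 ± 0.31, SE). The intact library nearest to ORX was intact 3, and the ORX libraries nearest to intact were ORX 3 and ORX 4. Its ratio of group means was 5.71. Without ORX 6, its highest library, the log2 difference was 2.30.

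**Figure D2:**
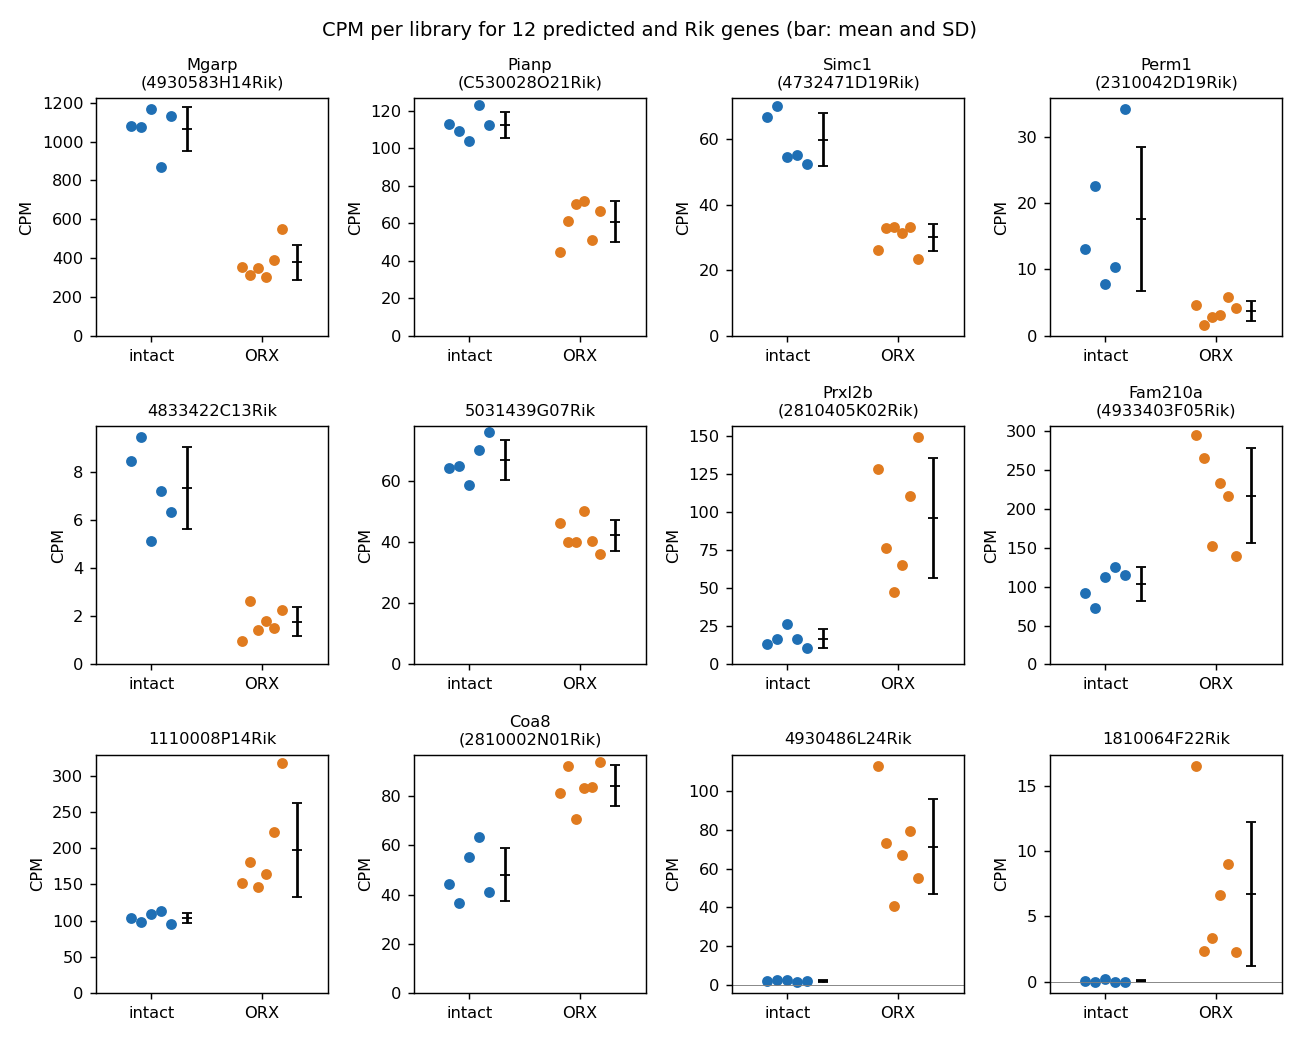
Each panel shows 1 gene, with CPM on a linear vertical axis starting at or just below 0; points are libraries in numerical order, blue for intact (n = 5) and orange for ORX (n = 6), and the bar gives mean and SD. ORX 6 is the highest ORX library for Mgarp, Prxl2b and 1110008P14Rik and the lowest for Fam210a and Simc1, and ORX 1 is the highest for 4930486L24Rik and 1810064F22Rik.

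The named genes with nuclear products went in both directions. Simc1 (4732471D19Rik; chr13:54503739-54551290, plus strand), a protein with SUMO-interacting motifs, was lower in ORX. For Simc1 intact 1 to 5 held 66.8, 70.1, 54.5, 54.98 and 52.4 CPM, against 23.4 to 33.2 CPM with a median of 32.02 in ORX (log2 -1.05 ± 0.15, SE). The step from intact 5, the lowest intact library, to the highest ORX library was wider than the range within either group. Epop (E130012A19Rik; chr11:97627387-97629716, minus strand), which links Polycomb repressive complex 2 to elongin, was higher. In intact 1 to 5 the level of Epop was 3.39, 3.97, 3.62, 4.13 and 2.24 CPM, and the ORX libraries lay between 6.12 and 11.9 CPM around a median of 9.75 (log2 1.39 ± 0.25, SE). Intact 4 was the highest intact library and ORX 1 the lowest ORX library, with a clear step between them. Meiob (4930528F23Rik; chr17:24804301-24839788, plus strand), a single-strand DNA-binding protein of meiotic recombination, was higher too, at a low level. Meiob stood at 2.79, 2.9997, 3.62, 3.69 and 2.38 CPM in intact 1 to 5, and at 5.05, 6.52 and 12.3 CPM in the lowest, median and highest ORX library (log2 1.17 ± 0.24, SE). ORX 2 stood alone above the other ORX libraries. The span of Meiob overlaps that of Hagh on the same strand, without shared exon bases in GENCODE M21.

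Of 5 genes for membrane proteins, 3 were lower and 2 higher in ORX. Pianp (C530028O21Rik; chr6:124996720-125003096, plus strand), a neural membrane protein and ligand of the receptor PILR-alpha, was lower. Its CPM was 113, 109, 104, 123 and 112 in intact 1 to 5, and in the ORX libraries 44.9 at the lowest, 63.9 at the median and 71.6 at the highest (log2 -0.92 ± 0.15, SE). The highest ORX library was ORX 4 and the lowest intact library intact 3. Elapor1 (5330417C22Rik; chr3:108455679-108536745, minus strand), an endosome and lysosome protein with a part in autophagy, was lower. For Elapor1 intact 1 to 5 held 10.1, 8.35, 9.41, 8.71 and 11.98 CPM, against 4.97 to 7.34 CPM with a median of 5.66 in ORX (log2 -0.75 ± 0.18, SE). ORX 4 was again the nearest to the intact libraries. Shisal1 (1810041L15Rik; chr15:84379203-84482860, minus strand), a Shisa-like membrane protein, was lower at a very low level. In intact 1 to 5 the level of Shisal1 was 2.86, 2.59, 2.72, 4.93 and 3.897 CPM, and the ORX libraries lay between 1.06 and 2.46 CPM around a median of 1.83 (log2 -0.90 ± 0.27, SE). Only a small step separated intact 2 from ORX 3. Tmem131l (D930015E06Rik; chr3:83898205-84040190, minus strand), a membrane protein known in thymocytes as a brake on Wnt signalling, was higher. Tmem131l stood at 29.3, 17.2, 39.8, 33.7 and 32.3 CPM in intact 1 to 5, and at 42.6, 57.1 and 81.6 CPM in the lowest, median and highest ORX library (log2 0.93 ± 0.22, SE). ORX 3, ORX 5 and ORX 6 lay near intact 3, and ORX 1 and ORX 2 well above. Tmem243 (4930420K17Rik; chr5:9100737-9118983, plus strand), a membrane protein without a settled role, was higher. Its CPM was 17.2, 12.3, 21.5, 19.1 and 14.9 in intact 1 to 5, and in the ORX libraries 22.3 at the lowest, 25.96 at the median and 34.1 at the highest (log2 0.67 ± 0.16, SE). ORX 6, the lowest of its group, was just above intact 3. Dmtf1, on the opposite strand, shares 404 exon bases with Tmem243 in GENCODE M21.

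The other genes named since were a gene of the ciliary axoneme and a few without a settled role. Cfap54 (Gm872; chr10:92775609-93083487, minus strand), a protein of the central pair of motile cilia and sperm tails, was higher in ORX. For Cfap54 intact 1 to 5 held 11.1, 13.2, 5.51, 10.8 and 9.02 CPM, against 13.5 to 23.5 CPM with a median of 16.6 in ORX (log2 0.75 ± 0.23, SE). Intact 2 and ORX 3 all but met. Spryd7 (6330409N04Rik; chr14:61531851-61556886, minus strand) was higher with the smallest log2 difference of the 41. In intact 1 to 5 the level of Spryd7 was 16.8, 17.2, 19.7, 20.2 and 16.2 CPM, and the ORX libraries lay between 20.7 and 29.8 CPM around a median of 25.7 (log2 0.43 ± 0.13, SE). ORX 4 and ORX 6 were within a step of intact 4. Soga3 (6330407J23Rik; chr10:29143996-29199630, plus strand) was lower. Soga3 stood at 14.3, 12.1, 10.6, 13.1 and 11.98 CPM in intact 1 to 5, and at 3.93, 6.21 and 9.61 CPM in the lowest, median and highest ORX library (log2 -0.99 ± 0.23, SE). ORX 3 alone came near the intact libraries. Nol4l (8430427H17Rik; chr2:153407461-153530239, minus strand) was lower. Its CPM was 40.5, 44.4, 36.7, 53.3 and 37.7 in intact 1 to 5, and in the ORX libraries 18.3 at the lowest, 25.2 at the median and 31.002 at the highest (log2 -0.85 ± 0.16, SE). The lowest intact library was intact 3. Fam219a (2310028H24Rik; chr4:41517691-41569607, minus strand) was lower, with very even intact libraries and a wider range in ORX. For Fam219a intact 1 to 5 held 24.9, 23.2, 22.7, 25.1 and 24.5 CPM, against 11.4 to 21.4 CPM with a median of 17.6 in ORX (log2 -0.51 ± 0.16, SE). ORX 6 was the lowest and ORX 4 the highest of the group.

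Of the coding genes with a provisional symbol, 4930486L24Rik (chr13:60842612-60864416, minus strand) had the largest ratio of group means among all coding genes of the set, 34.8. For 4930486L24Rik intact 1 to 5 held 2.13, 2.27, 2.65, 1.41 and 1.804 CPM, against 40.5 to 113 CPM with a median of 70.1 in ORX (log2 5.05 ± 0.28, SE). The gap between the groups was the widest of the 41, 3.70 on the scale of log2(CPM + 0.5). ORX 1 was the highest and ORX 3 the lowest ORX library, as they were for the X-zone markers, whose part in the result was not tested. The summed CPM of the X-zone markers Akr1c18, Pik3c2g and Thrb was 3061 in ORX 1 and 815 in ORX 3, and 29.2 to 42.2 in the intact libraries. 1110008P14Rik (chr2:32379101-32381915, minus strand) was higher in ORX. In intact 1 to 5 the level of 1110008P14Rik was 103, 97.8, 109, 113 and 95.8 CPM, and the ORX libraries lay between 146 and 318 CPM around a median of 173 (log2 0.90 ± 0.21, SE). The intact libraries were close to each other, and ORX 6 was well above the rest. 2410002F23Rik (chr7:44246711-44252319, plus strand) was higher by a small step. 2410002F23Rik stood at 53.4, 49.7, 46.8, 38.9 and 29.6 CPM in intact 1 to 5, and at 54.1, 65.3 and 88.5 CPM in the lowest, median and highest ORX library (log2 0.61 ± 0.19, SE). Intact 1 and ORX 4 nearly touched. Gm973 (chr1:59516264-59636417, plus strand) was higher at a low level. Its CPM was 0.399, 0.405, 0.906, 1.06 and 0.217 in intact 1 to 5, and in the ORX libraries 1.76 at the lowest, 2.35 at the median and 5.501 at the highest (log2 2.39 ± 0.44, SE). ORX 2 and ORX 4 held the most. 5031439G07Rik (chr15:84943936-84987971, minus strand), which RefSeq also lists as mKIAA0930, was the only gene of this class that was lower in ORX. For 5031439G07Rik intact 1 to 5 held 64.1, 64.9, 58.6, 69.9 and 75.7 CPM, against 36.1 to 49.9 CPM with a median of 40.3 in ORX (log2 -0.71 ± 0.12, SE). Intact 3 was the lowest intact and ORX 4 the highest ORX library.

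Among the lncRNAs, 1810064F22Rik (chr9:22206786-22213860, minus strand) was almost not detected in intact adrenals. Its counts were 4 over the 5 intact libraries and 528 over the 6 ORX libraries, a ratio of 109.5 relative to the library totals (95% interval 42.5 to 403, exact, for counting error alone). Its CPM was 0.0665, 0, 0.209, 0 and 0 in intact 1 to 5, and in the ORX libraries 2.27 at the lowest, 4.98 at the median and 16.5 at the highest (log2 6.56 ± 0.84, SE). At so few intact counts the fitted log2 value depends on the prior count, and leaving out 1 library gave 6.07 (without ORX 1) to 7.80 (without intact 3). In intact 2, 4 and 5 no read was counted, and ORX 1 held far more than ORX 2, ORX 3 and ORX 6. Gm19705 (chr1:136683396-136690805, plus strand) was higher as well. For Gm19705 intact 1 to 5 held 1.33, 0.811, 1.67, 1.32 and 0.577 CPM, against 2.75 to 6.11 CPM with a median of 3.56 in ORX (log2 1.75 ± 0.31, SE). ORX 2 was the highest and ORX 3 the lowest of the ORX libraries.

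Of the 5 lncRNAs lower in ORX, 4833422C13Rik (chr13:91701665-91741872, minus strand) had the widest gap between the groups. In intact 1 to 5 the level of 4833422C13Rik was 8.45, 9.49, 5.16, 7.21 and 6.35 CPM, and the ORX libraries lay between 0.982 and 2.65 CPM around a median of 1.66 (log2 -2.09 ± 0.28, SE). Intact 3 was the lowest intact library, and ORX 1 the lowest of all. 4930511M06Rik (chr18:57545361-57552397, minus strand) had even ORX libraries and scattered intact ones. 4930511M06Rik stood at 19.8, 15.6, 8.85, 9.94 and 30.5 CPM in intact 1 to 5, and at 4.14, 4.84 and 5.35 CPM in the lowest, median and highest ORX library (log2 -1.86 ± 0.31, SE). Intact 5 was the highest and intact 3 the lowest of its group. 4632428C04Rik (chr16:30008667-30021430, plus strand) was low throughout. Its CPM was 0.998, 0.811, 3.83, 2.73 and 1.15 in intact 1 to 5, and in the ORX libraries 0.151 at the lowest, 0.417 at the median and 0.679 at the highest (log2 -2.26 ± 0.48, SE). Intact 3 and intact 4 stood above the other intact libraries. E030011O05Rik (chr9:96731575-96752831, minus strand) overlaps the 5′ edge of the span of Zbtb38 on the same strand, and most of it lies upstream of Zbtb38. Zbtb38 was at log2 -0.93 ± 0.48 (SE; edgeR adjusted p = 0.267). For E030011O05Rik intact 1 to 5 held 2.46, 4.38, 2.23, 2.29 and 3.83 CPM, against 0.731 to 2.02 CPM with a median of 1.24 in ORX (log2 -1.29 ± 0.32, SE). ORX 3 was the nearest to intact 3. The remaining one, C030037D09Rik, had a mean CPM of 1.62 in intact and 0.781 in ORX (log2 -1.09 ± 0.42, SE).

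The other 11 genes higher in ORX had low or moderate levels. They were the coding genes Gm14325, 9030025P20Rik, 4930579G24Rik and 1700029I15Rik and the lncRNAs C330013E15Rik, 5031425E22Rik, Gm4890, Gm14379, 1110020A21Rik, 2810032G03Rik and Gm19522. Their mean CPM lay between 0.638 and 18.2 in intact and between 1.44 and 26.4 in ORX, with log2 differences from 0.49 to 1.34. In 16 of the 41 genes the nearest libraries of the groups were less than 0.1 apart on the scale of log2(CPM + 0.5). The smallest gaps were 0.0069 for 2810032G03Rik, 0.0195 for C330013E15Rik and 0.0201 for 2410002F23Rik. Just outside, Gm1661, Gm12216 and 2210408I21Rik overlapped, with gaps of -0.0085, -0.0112 and -0.0125. At the limit of the level, 1110020A21Rik, 4632428C04Rik and C030037D09Rik had mean CPM of 1.08, 1.08 and 1.16, and 2700099C18Rik, 4930404N11Rik and D630042P16Rik, separated but outside, 0.794, 0.710 and 0.661.

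The named genes beside these 41 were not chosen by the rule and could be tested. Of 36 tested genes with a symbol other than Gm or Rik that overlap one of the 41 or lie within 10 kb of it, 3 rose, 1 fell and 32 did not pass (edgeR, adjusted over all 14139 genes), 11.1% against 6.21% of all tested genes. Each of the 4 moved in the direction of the gene beside it. Among the 32 others, some had the same sign as the gene beside them, such as AW011738 (log2 -1.21, beside Perm1, which was lower). Others had the opposite sign, such as Zbtb20 (log2 -0.87, beside Gm19522, which was higher). The median log2 fold change of the 36 was 0.07, against 0.01 over all tested genes. Of the 12 that overlap, 1 passed, and of the 24 that lie apart, 3. With the mean log2 level of the medulla markers as a covariate 0 of the 36 passed, and 9 had an unadjusted p under 0.05 against 11 without it. In that fit Mmel1 was at log2 2.86 (edgeR adjusted p = 0.0924), Pex16 at 0.94 (0.197), Dazap2 at 0.53 (0.205) and Acot12 at -1.88 (0.237). Over all tested genes 109 passed with the covariate and 878 without it. The medulla markers were themselves lower in ORX at the median (log2 -0.50), so the covariate goes partly with the groups. A lost call therefore does not give the part of the medulla, which was not tested.

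Mmel1 (chr4:154869585-154895530), a membrane metallopeptidase related to neprilysin, lies 900 bases from Prxl2b on the opposite strand, the pair facing end to end. Its CPM was 2.06, 1.54, 0.906, 1.41 and 0.289 in intact 1 to 5, and 3.25, 8.29 and 12.9 in the lowest, median and highest ORX library, and it rose by 2.73 ± 0.45 on the log2 scale (SE; edgeR adjusted p = 0.00348). The groups did not overlap, and ORX 3 was the lowest of its group, as it was for Prxl2b. Pex16 (chr2:92374676-92381220), a factor of peroxisome membrane assembly, lies 1698 bases from 1700029I15Rik on the same strand. It stood at 60.2, 42.97, 101, 56.3 and 67.1 CPM in intact 1 to 5 and between 109 and 178 CPM, median 134, in ORX, and rose by 1.02 ± 0.20 (SE; edgeR adjusted p = 0.0111). Intact 3 was the highest intact library and remained below ORX 4. Dazap2 (chr15:100615662-100620761), an adaptor protein with a proline-rich sequence, starts head to head with C330013E15Rik, 551 bases away. The intact libraries held 197, 185, 189, 240.1 and 183 CPM and the ORX libraries 277 to 334 CPM, median 295, and it rose by 0.55 ± 0.12 (SE; edgeR adjusted p = 0.0156). Its groups did not overlap, but the call was lost without ORX 2 (edgeR adjusted p = 0.0511) or intact 5 (edgeR adjusted p = 0.0535).

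Acot12 (chr13:91741326-91786148), an acetyl-CoA thioesterase, runs opposite to 4833422C13Rik. It held 5.72, 8.03, 3.83, 4.75 and 5.85 CPM in intact 1 to 5 and 0.289, 0.864 and 2.05 CPM in the lowest, median and highest ORX library, and fell (log2 -2.55 ± 0.43, SE; edgeR adjusted p = 0.00405). Intact 3 was the lowest intact library for both genes. In GENCODE M21 their exons share 149 bases of the 5915 exon bases of 4833422C13Rik, and without a stated strand setting reads there could belong to either. Ssbp2, also on the opposite strand, shares 1765 exon bases with it and was at log2 0.14 ± 0.15 (SE; edgeR adjusted p = 0.621). AW011738, which overlaps Perm1 on the same strand without shared exon bases, was at -1.21 ± 0.35 (SE; edgeR adjusted p = 0.0607). The difference between Acot12 and Ssbp2 was not tested.

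Among pairs that do not overlap and start head to head less than 1000 bases apart, which were 7, Dazap2 rose and the other 6 named genes did not pass. In 3 more pairs the genes overlap at their starts, less than 1000 bases from start to start: Acot12, beside 4833422C13Rik, fell, and Rnmt, beside Fam210a, and Ppm1b, beside 1110020A21Rik, did not pass. Bag5, 11 bases from the start of Coa8, was at log2 0.22 ± 0.13 (SE; edgeR adjusted p = 0.354). Mmaa, 75 bases from Gm4890, was at -0.04 ± 0.17 (SE; edgeR adjusted p = 0.919). Etfdh, an electron transfer flavoprotein dehydrogenase 311 bases from 4930579G24Rik, was at -0.34 ± 0.16 (SE; edgeR adjusted p = 0.208), the sign opposite to that of 4930579G24Rik. Msi2, an RNA-binding protein 336 bases from C030037D09Rik, was at -0.59 ± 0.27 (SE; edgeR adjusted p = 0.203).

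**Figure D3:**
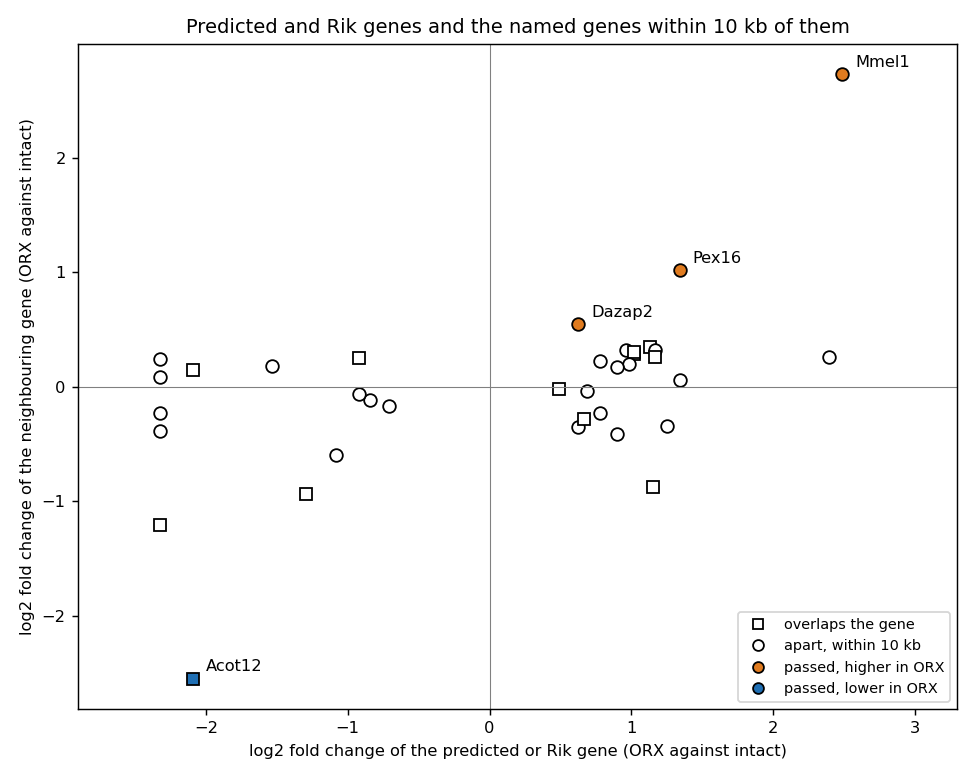
Each point is 1 of 36 named genes beside the provisional ones, with the log2 fold change (ORX against intact) of the Gm or Rik gene on the horizontal and of the named gene on the vertical axis; squares overlap, circles lie apart within 10 kb, and filled points passed the edgeR test. Mmel1, Pex16 and Dazap2 lie in the upper right and Acot12 in the lower left, and the 32 others lie between -1.21 and 0.35 on the vertical axis.

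Which libraries lay nearest to the opposite group follows in part from the rule. Intact 3 was the highest intact library for 11 of the 26 genes higher in ORX, and intact 4 for 9. Intact 3 was the lowest intact library for 9 of the 15 genes lower in ORX. ORX 3 was the lowest ORX library for 12 of the 26, and ORX 3 and ORX 4 were each the highest for 5 of the 15. In the 15 genes ORX 4 deviated at the median by 0.20 (log2) and ORX 3 by 0.15. Against the rest of the group, the 26 genes deviated at the median by 0.34 (log2) in intact 3 and by -0.33 in ORX 3, against 0.13 and -0.05 for all genes with a mean of at least 1 CPM. Leaving out these libraries changed the number of genes most: without intact 3 the rule finds 89 genes, and without ORX 3 it finds 67, while without any other library it finds 43 to 60. A rule of no overlap is loosened by leaving out any library, most of all by one often at the edge of its group. The rise is therefore built into the rule. Intact 3 and ORX 3 also held the highest summed level of the fat markers in their groups, 17839 and 18617 CPM against 6758 to 13712 and 4539 to 9957 in the rest. Both libraries also held the lowest summed level of the cortex markers in their groups, 38915 and 62078 CPM. Summed medulla markers were lowest in intact 3 among the intact libraries (14481 CPM) and highest in ORX 3 among the ORX libraries (18547 CPM). The part of fat, cortex or medulla in the result was not tested.

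**Figure D4:**
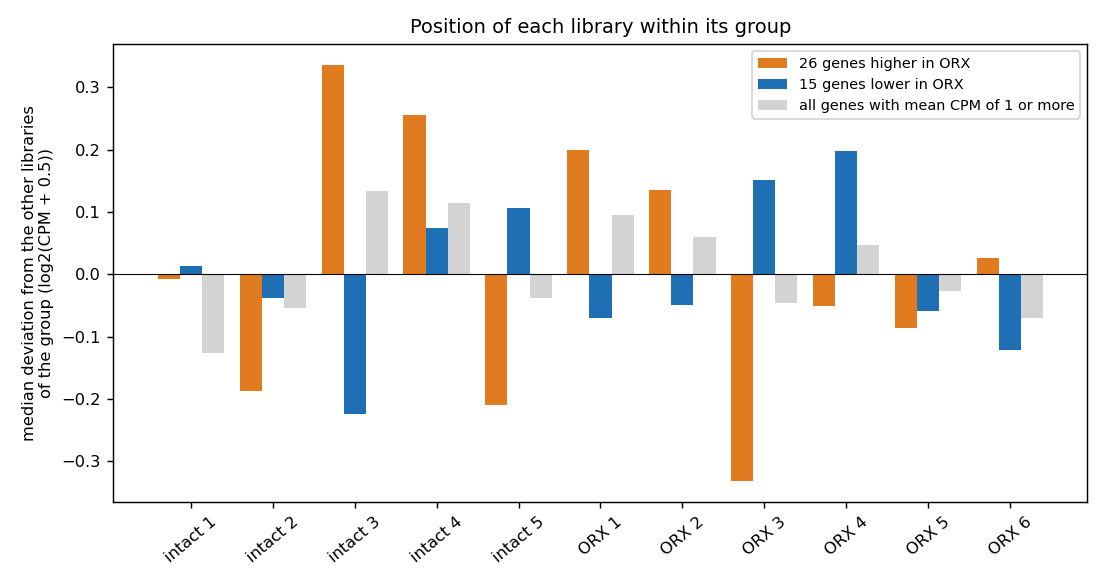
Bars give, for each library, how far it lay at the median from the mean of its group without it, in log2(CPM + 0.5), for the 26 genes higher in ORX (orange), the 15 lower in ORX (blue) and all genes with a mean of at least 1 CPM (grey). Intact 3 and intact 4 deviate upwards (0.34 and 0.26) and ORX 3 downwards (-0.33) in the 26 genes.

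The markers of the medulla, the catecholamine-producing core, were lower in ORX for 4 of 19 tested genes and higher for 0 (median log2 -0.50), with sums of 14481 to 30351 CPM in intact and 8151 to 18547 CPM in ORX. In tissue pieces of mixed cells, fewer cells of a type and less RNA per cell cannot be told apart. With the mean log2 level of these markers as a covariate all 41 genes kept their sign, 31 had a smaller difference and 3 passed: 4930486L24Rik at log2 4.46 ± 0.34, 1810064F22Rik at 4.68 ± 0.87 and Prxl2b at 2.29 ± 0.44 (SE). Over all tested genes 109 passed with the covariate, against 878 without it. The counts for the 41 are a description only, since the rule used the same contrast. Of the 26 calls lost with the covariate, 21 had a smaller log2 difference, such as Pianp (from -0.92 to -0.55) and Soga3 (from -0.99 to -0.38). The other 5 had a larger one: Epop (from 1.39 to 1.64), 1110008P14Rik (from 0.90 to 1.25), 1700029I15Rik (from 1.34 to 1.93), 4632428C04Rik (from -2.26 to -2.87) and Nol4l (from -0.85 to -0.87). Of the remaining lists, the X-zone rose in 3 of 3 genes, the cortex in 3 of 10 and the cell cycle in 2 of 9. The zona glomerulosa fell in 5 of 12, and endothelium and macrophages in 1 of 10 and 1 of 9. Over all tested genes 6.21% passed. An unadjusted edgeR p under 0.05 was reached by 3 X-zone, 5 cortex, 8 cell cycle, 5 glomerulosa, 5 endothelium, 1 macrophage and 11 medulla genes. DESeq2 called 3, 4, 4, 5, 3, 1 and 8 of them in that order. Summed cell cycle markers were 10.9 to 29.7 CPM in intact and 31.2 to 59.5 CPM in ORX. Stroma, fat, liver and red blood cell lists had 0 genes past the edgeR threshold, and 4, 1, 3 and 0 genes at an unadjusted p under 0.05. In these 4 lists DESeq2 called 2 stroma genes and 0 of the others, and limma voom called 0.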

How the data were processed

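RNA-seq gene counts from 11 adrenal libraries, 5 intact and 6 ORX, were analysed. The authors deposited raw counts per gene symbol in 2 identical copies, of which the first was used. Per the submitters' processing notes, Subread 1.5.1 and bcl2fastq 1.8.4 were used with the mm10 build, in roles not stated. The labels' protocols name both a stranded mRNA and an RNA v2 guide (300 ng of total RNA), so the strand setting is open. The genes and lists were chosen with earlier results of these data known.

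CPM is the count over the library total. The whole table was fitted with edgeR 4.0.16 in R 4.3.3 (quasi-likelihood test, TMM scaling with factors from 0.913 to 1.05, filterByExpr with a minimum count of 10, two-sided, Benjamini-Hochberg adjustment, threshold 0.05). The filter kept 14139 genes with 99.9% of the counts, and the biological coefficient of variation was 30.2%. DESeq2 1.42.0 and limma 3.58.1 (voom) served as alternatives, beside other scaling, other filters, a medulla covariate, a replicate block and leaving out each library. The scripts were tested on simulated data. Library totals were 11368447 to 15029582 counts, and the interval given for 1810064F22Rik covers counting error only. A chi-square test of counts found no pair of libraries in a group alike (at least 25.5 per degree of freedom).

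Values are given for the 6 genes with the highest mean CPM and the 6 with the largest difference in each direction. Every gene with a newer RefSeq symbol is included as well. Intact libraries are given singly, and ORX libraries by their lowest, median and highest value. The rest are summarised. Positions and promoter sequences come from RefSeq (GRCm38.p6), and transcript lengths and exons from GENCODE M21. Neighbours are tested genes with a symbol other than Gm or Rik within 10 kb.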

Additional observations from a re-analysis of the deposited data

Results flagged for a closer look

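In 9 of 132 groups checked, 1 library lay far from the rest of its group. The check covered the provisional genes and the named neighbours with the smallest p, and the other neighbours were not checked. The limit used flags about 1 in 20 groups by chance. That share holds for genes not chosen by the contrast, so it is only a rough guide for the provisional genes. ORX 2 was high for 2810032G03Rik (16.6 CPM) and for Meiob (4930528F23Rik, 12.3 CPM), and ORX 1 for C330013E15Rik (3.10 CPM). ORX 6 was high for Mgarp (4930583H14Rik, 550.4 CPM), 1700029I15Rik (8.04 CPM), Gm4890 (3.36 CPM) and Bag5 (46.5 CPM). ORX 6 is also the library that deviates with transcript length, and its part in these values was not tested. Intact 4 was high for Dazap2 (240.1 CPM), and intact 3 was low for Nup50 (50.3 CPM).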

How the results depend on the processing

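The number of genes past the threshold (878 in all, 29 of the 41, 4 neighbours, 19 marker genes) depended on the fit. DESeq2 called 1630.0 genes and 30 marker genes. The medulla covariate left 109 genes, 3 of the 41, 0 neighbours (9 of 36 at an unadjusted edgeR p under 0.05) and 4 marker genes. The replicate block left 416 genes, 16 of the 41 and 7 marker genes. The deviations of libraries with the same number were correlated at r from -0.28 to 0.18. So few correlations cannot tell whether such libraries share a batch, and the labels name none. An adjusted p under 0.01 left 260.0 genes, 16 of the 41, 2 neighbours and 8 marker genes. Leaving out 1 library gave 408 genes (without intact 5) to 1280.0 (without ORX 3), 18 to 31 of the 41, 3 to 5 neighbours, 9 (without ORX 2) to 33 (without ORX 3) marker genes and, for the rule itself, 43 to 89 genes. With the medulla covariate the log2 fold changes of 7 neighbours that had not passed changed sign: Ppm1b -0.0574, Smagp 0.0298, Usp27x -0.235, Klc1 0.0677, Nup50 0.0820, Klhl29 -0.0411 and Ssbp2 -0.0433. All alternative runs were followed only for the neighbours with the smallest p, not for all 36. Among the rest, leaving out 1 library changed the sign of Lcn2 (-0.666 to 0.671), Ndufc1 (-0.298 to 0.487), Mmaa (-0.145 to 0.0651) and Mll5 (-0.209 to 0.167). The cause was not tested. No log2 difference of the 41 genes changed sign under any alternative run. These genes were chosen for groups that do not overlap, so leaving out a library could hardly have changed a sign. Nothing is read from it. Scaled library sizes (TMM or RLE) gave 45 genes by the rule, 37 of them shared with the 41. Genes near 1 CPM rest on few counts per library.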
